A study of Homo sapiens with 6 samples.

Results

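This report compares HEK293 cells in which ZNF507 was disrupted with HEK293 cells in which ZNF146 was disrupted, using 4 of the 6 RNA-seq libraries of the study: sgZNF507 replicates 1 and 2 against sgZNF146 replicates 1 and 2. HEK293 is an established cell line derived from human embryonic kidney. Both groups received the plasmid PX459, which carries Cas9, a guide RNA and puromycin resistance, with 4 target sequences against one gene, and the remaining pair of libraries (EV) received the plasmid without a guide. Cells were transfected transiently, selected with puromycin for 36 h and grown out for 2 weeks in all. Nothing in the methods says that clones were picked, so each library is taken as a population of edited and unedited cells, and the design text of the study calls the 2 libraries of a group biological duplicates. Both groups thus carried Cas9 and 4 cutting guides, and EV, which was not cut, is given beside the results as a further reference.

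ZNF507 and ZNF146 (also called OZF) encode C2H2 zinc finger proteins, a class of proteins that contact DNA through small zinc-binding domains. The study chose them because both bind LINE-1 retrotransposon sequences, at different positions. Many of the genes that differed between these cells belong to the lysosome, the acidic compartment in which hydrolases break down macromolecules. Soluble hydrolases reach it through a mannose 6-phosphate tag added in the Golgi and read by receptors, a proton pump (the V-ATPase) acidifies it, and endosomal tethers and sorting complexes route membrane to and from it.

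The 8 target sequences are shown because they define the groups. Each is given as the protospacer on GRCh37, 5′ to 3′, with the adjacent NGG (PAM) in capitals. The listed sequences had 18 to 20 bases and were taken on the complementary strand and extended to 20 bases with genomic bases. This reading gave an NGG for all 8, whereas on the listed strand 6 had none and ZNF507 guides 1 and 3 had one. It was chosen after the adjacent bases had been seen.
ZNF146 guide 1: gaaaatgctcatgctcagtgAGG
ZNF146 guide 2: catcacttattgtacatgtgAGG
ZNF146 guide 3: gccagcagagaatttacagtGGG
ZNF146 guide 4: gagtgtggaaaaaccttcagTGG
ZNF507 guide 1: ggaggaacttgaagcccacgTGG
ZNF507 guide 2: aagtttgtccggaaacaatgTGG
ZNF507 guide 3: tattacatctagaagccaggAGG
ZNF507 guide 4: gagttgacaagagccaacctGGG
The ZNF146 sites lay in exon 4 of that gene, at chr19:36727435-36727454, chr19:36727932-36727951, chr19:36727356-36727375 and chr19:36727736-36727755, which are codons 32, 202, 10 and 137 of 292. The ZNF507 sites lay in exon 3, at chr19:32844237-32844256, chr19:32845605-32845624, chr19:32844219-32844238 and chr19:32845261-32845280, which are codons 173, 629, 167 and 514 of 953. ZNF146 guide 1 reads on the minus strand and the other 7 on the plus strand. All sites are coding, and the starts of the 2 genes are 3.87 Mb apart on chromosome 19.

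The targeted genes were examined first. ZNF507 mRNA was at 71.3 and 73.3 CPM (the count scaled to a fixed library size after normalisation) in sgZNF146 and at 47.2 and 48.7 CPM in sgZNF507, with EV at 72 and 75.5 CPM. Both sgZNF507 libraries lay below the other 4, and ZNF507 fell by 0.59 on the log2 scale (SE 0.07, adjusted p = 0.00307 in edgeR's quasi-likelihood test, adjusted over all genes after Benjamini and Hochberg). Without sgZNF146 replicate 1 or replicate 2 the adjusted p of ZNF507 was 0.0502 or 0.056, with log2 fold changes of −0.61 and −0.57. ZNF146 mRNA was at 99.2 and 103 CPM in sgZNF146, at 88.4 and 101 CPM in sgZNF507 and at 115 and 105 CPM in EV. The sgZNF146 and sgZNF507 libraries overlapped for ZNF146 (log2 fold change −0.09, SE 0.08, adjusted p = 1.0), and without sgZNF507 replicate 1 the sign of that difference turned (0.005). The mRNA level therefore sets the sgZNF507 libraries apart, while it does not separate the libraries labelled sgZNF146 from the rest. These counts do not show whether small insertions or deletions were present in either mRNA. Protein levels were not analysed here.

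Library totals ranged from 22724439 to 28524025 counts. HEK293-expressed markers were detected in all 6 libraries, VIM with 23327 to 31712 counts and NEFM with 1669 to 2143 counts. Among 15 markers of other cell types, HBG1, AFP and KRT5 had no count in any library, and 5 passed the filter on low counts. COL1A1, with 1495 to 1933 counts, was the highest of them, and the summed level of these markers was 86.4 and 77.5 CPM in sgZNF507, 68.7 and 74.0 CPM in sgZNF146 and 71.7 and 76.0 CPM in EV. None of these markers passed the test between sgZNF507 and sgZNF146. Mitochondrial ribosomal RNA took 0.168% and 0.0103% of counts in sgZNF507 against 0.0253% and 0.0317% in sgZNF146 and 0.27% and 0.286% in EV. The sgZNF507 replicates thus differed from each other, and both sgZNF146 libraries lay below both EV libraries. Libraries were made with ribosome depletion, and whether depletion differed between them was not tested.

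Between sgZNF507 and sgZNF146, 38 of 22010 genes tested (0.173%) passed an adjusted p of 0.05. Of these, 23 (0.104% of the genes tested) were higher and 15 (0.0682%) lower in sgZNF507. Unadjusted p-values under 0.05 were found for 887 genes, 412 higher and 475 lower. Protein-coding genes made up 22 of the 23 higher genes and 5 of the 15 lower ones, and the other 10 lower genes were non-coding. Most differences were moderate: of the 38, 11 differed over 2-fold and 24 over 1.5-fold.

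**Figure D1:**
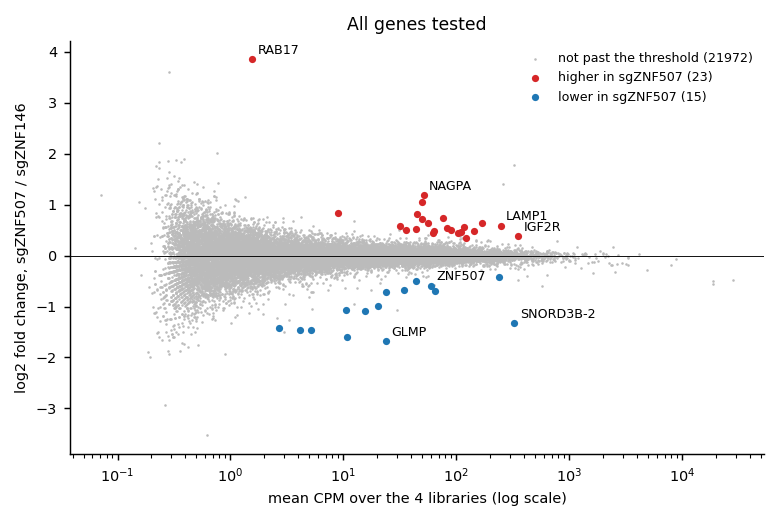
Log2 fold change of sgZNF507 over sgZNF146 (vertical axis) against the mean level over the 4 libraries in CPM (horizontal axis, log scale) for the 22010 genes tested, 1 point per gene. The 23 higher (red) and 15 lower (blue) genes stand out of a cloud centred on 0, and RAB17 lies apart at a log2 fold change of 3.85.

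For all 38 genes the libraries of the 2 groups did not overlap, an outcome favoured by choosing the genes on this contrast. Over all genes tested, both sgZNF507 libraries lay above both sgZNF146 libraries for 15.5% and below for 16.5%. The EV mean was nearer to sgZNF146 than to sgZNF507 for 38 of 38, and both sgZNF507 libraries lay outside the range of the other 4 for 38 of 38, while the sgZNF146 libraries did so for 6. Over all genes tested, sgZNF507 lay outside the other 4 for 13.7% and sgZNF146 for 11.5%. These shares are not a like base for the 38 genes, which were chosen for a difference between the 2 groups. The median absolute log2 fold change of the 38 genes was 0.657 against sgZNF146. Against EV, the same measure was 0.669 for sgZNF507 and 0.044 for sgZNF146. The comparison against EV shares the sgZNF507 libraries with the one that chose these genes, so the values are given side by side and not as a second test.

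**Figure D2:**
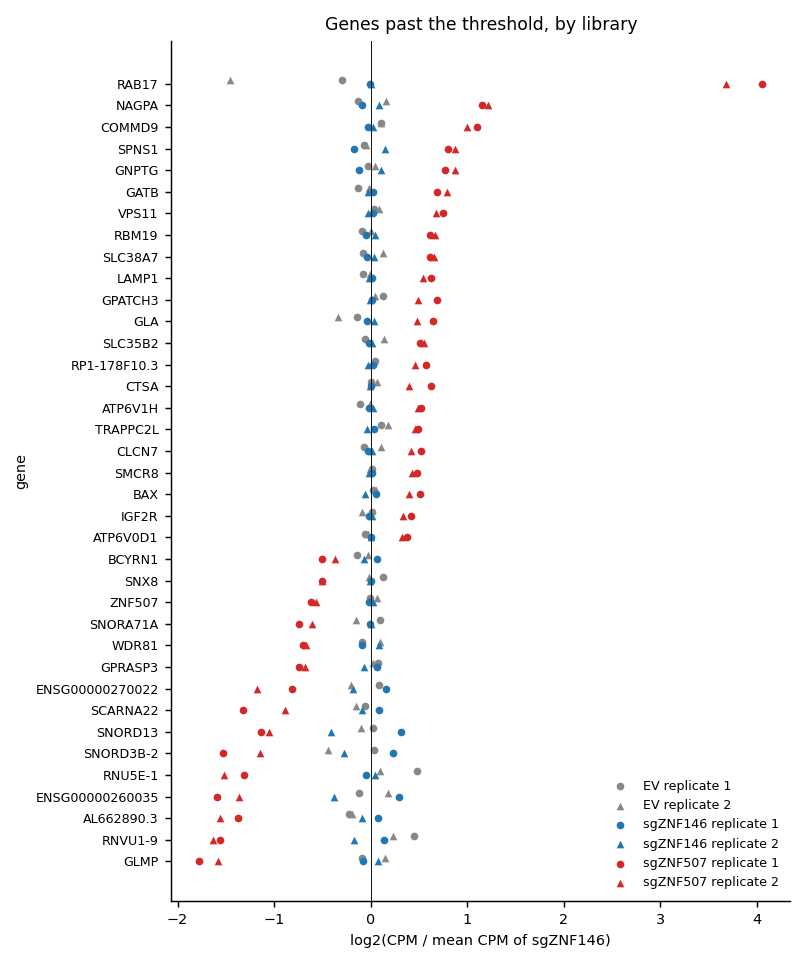
Level of the genes past the threshold that are reported here in all 6 libraries, as log2 of CPM over the mean CPM of sgZNF146 (horizontal axis), with EV in grey, sgZNF146 in blue and sgZNF507 in red, circles for replicate 1 and triangles for replicate 2. Both sgZNF507 libraries lie outside the other 4 libraries for every gene shown.

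NAGPA and GNPTG, which help to make the mannose 6-phosphate tag, were among the most different genes, while its receptors differed less or did not pass. NAGPA, the enzyme that uncovers the tag, was at 29.6 and 33.4 CPM in sgZNF146, 69.9 and 73.4 CPM in sgZNF507 and 28.8 and 35.2 CPM in EV. It rose by 1.19 on the log2 scale (SE 0.10, adjusted p = 0.00028). GNPTG, the gamma subunit of the phosphotransferase that starts the tag, was at 29.6 and 34.6 CPM in sgZNF146 against 54.8 and 58.9 CPM in sgZNF507, with EV at 31.6 and 33.2 CPM (log2 fold change 0.82, SE 0.09, adjusted p = 0.00167). Its partner GNPTAB, which carries the other subunits and was named after its value was seen, gave −0.08 (SE 0.07, adjusted p = 1.0). IGF2R, the large mannose 6-phosphate receptor, was at 305 and 312 CPM in sgZNF146 and 413 and 389 CPM in sgZNF507 (log2 fold change 0.38, SE 0.07, adjusted p = 0.0404). The other receptor, M6PR, named after its value was seen, did not pass (−0.065). NAGPA and GNPTG stayed past the threshold with each library left out, whereas IGF2R did so in 1 of 6 such fits (without sgZNF507 replicate 2) and also lost its call with upper quartile scaling, with the 4 libraries alone and under glmTreat, edgeR's test against a fold change of 1.2 (largest adjusted p 1.0). In the list of 23 tagging and sorting genes, 3 rose and none fell, the 20 others did not pass, and the median log2 fold change was 0.048 beside −0.004 over all genes tested. The 2 other most abundant members, the adaptor genes AP1B1 and GGA2, gave 0.04 and 0.06, both with an adjusted p of 1.0, and GGA2 changed sign with single libraries left out.

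Of 64 lysosomal hydrolases and lumenal proteins tested, 3 rose and none fell. GLA (alpha-galactosidase A) was at 92.2 and 97.0 CPM in sgZNF146, 148 and 132 CPM in sgZNF507 and 85.6 and 74.8 CPM in EV (log2 fold change 0.57, SE 0.08, adjusted p = 0.0112). CTSA (cathepsin A, which also protects other hydrolases) was at 73.5 and 73.3 CPM in sgZNF146 and 113 and 96.4 CPM in sgZNF507 (0.51, SE 0.08, adjusted p = 0.0204). GLA and CTSA lost their calls without sgZNF146 replicate 1, sgZNF146 replicate 2 or sgZNF507 replicate 1 and under glmTreat, with adjusted p of up to 0.261 and 0.556. The list as a whole was not displaced: its median was −0.017, both sgZNF507 libraries lay above both sgZNF146 libraries for 14 members and below for 12, and over all genes those shares were 15.5% and 16.5%. PSAP and CTSD, the other most abundant members, gave −0.02 and 0.16, each with an adjusted p of 1.0. HEXA, a hexosaminidase subunit named after its value was seen, was at 60.3 and 64.0 CPM in sgZNF146 and 44.8 and 48.0 CPM in sgZNF507 and just missed the threshold (−0.42, SE 0.07, adjusted p = 0.0501).

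Lysosomal membrane proteins differed in both directions. LAMP1, the abundant membrane glycoprotein, was at 199 and 194 CPM in sgZNF146, 305 and 287 CPM in sgZNF507 and 186 and 196 CPM in EV (0.59, SE 0.06, adjusted p = 0.00131). The transporters SPNS1 (0.83, SE 0.14, adjusted p = 0.0402), SLC38A7 (0.63, SE 0.08, adjusted p = 0.00757) and CLCN7 (0.48, SE 0.07, adjusted p = 0.0182), which carry lysophospholipids, amino acids and chloride, were higher as well. SPNS1 was the lowest of these, at 5.67 and 7.11 CPM in sgZNF146 and 11.1 and 11.7 CPM in sgZNF507. The SPNS1 call was lost in each of the 6 fits with 1 library left out, with the 4 libraries alone and under glmTreat (largest adjusted p 0.912). CLCN7 kept its call in 3 of those 6 fits, SLC38A7 in 4 and LAMP1 in 6. GLMP moved the other way. This glycoprotein, the partner of the transporter MFSD1 in the lysosomal membrane, was at 34.6 and 38.6 CPM in sgZNF146, 10.7 and 12.2 CPM in sgZNF507 and 34.3 and 40.5 CPM in EV. It fell by 1.68 on the log2 scale (SE 0.12), the gene with the smallest adjusted p of all (7.07e-05), and lies at chr1:156259880-156265480 on GRCh37, where TMEM79 overlaps it on the opposite strand. MFSD1, named after its value was seen, gave 0.17 (SE 0.13, adjusted p = 1.0). Of 50 membrane proteins tested, 4 rose and 1 fell, with a median of 0.032. The most abundant members beside LAMP1, ATP13A2 and CD164, gave 0.06 and −0.07, both with an adjusted p of 1.0, and CD164 changed sign with single libraries left out.

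Of 25 V-ATPase subunits and assembly factors, 2 rose and none fell. ATP6V1H, a subunit of the cytosolic sector, was at 29.0 and 29.9 CPM in sgZNF146 and 42.3 and 41.2 CPM in sgZNF507 (0.50, SE 0.08, adjusted p = 0.0346). ATP6V0D1, of the membrane sector, was at 108 CPM in both sgZNF146 libraries and at 140 and 135 CPM in sgZNF507 (0.35, SE 0.06, adjusted p = 0.046). Both calls were lost in each of the 6 fits with 1 library left out, with the 4 libraries alone and under glmTreat, and that of ATP6V0D1 also with upper quartile scaling (largest adjusted p 0.746 for ATP6V1H and 1.0 for ATP6V0D1). Both sgZNF507 libraries lay above both sgZNF146 libraries for 11 of the 25 (44%) and below for 4, against 15.5% and 16.5% of all genes, and the median was 0.069. The summed level of the list was 1423 and 1415 CPM in sgZNF146, 1537 and 1554 CPM in sgZNF507 and 1422 and 1458 CPM in EV. The 3 most abundant members, ATP6V0A1, ATP6V0E2 and ATP6AP1, gave 0.14, 0.13 and 0.05, each with an adjusted p of 1.0.

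Endosomal genes split in direction. COMMD9, a subunit of the Commander complex of endosomal recycling, was at 31.9 and 33.0 CPM in sgZNF146, 70 and 64.8 CPM in sgZNF507 and 35.1 CPM in both EV libraries, a rise of 1.05 on the log2 scale (SE 0.08, adjusted p = 9.68e-05). VPS11, a core subunit of the HOPS and CORVET tethers that bring endosomes and lysosomes together, was at 38.1 and 36.6 CPM in sgZNF146 and 62.9 and 59.7 CPM in sgZNF507 (0.71, SE 0.08, adjusted p = 0.00144). The other HOPS subunits, named after their values were seen, did not pass: VPS16 gave 0.20, VPS33A 0.26, VPS41 0.09, VPS18 −0.01 and VPS39 −0.02, each with an adjusted p of 1.0, the last 2 with signs that turned when single libraries were left out. WDR81, which limits phosphatidylinositol 3-phosphate on endosomes, was at 75.3 and 85.3 CPM in sgZNF146 and 49.3 and 50.5 CPM in sgZNF507 (−0.69, SE 0.09, adjusted p = 0.00446). SNX8, a sorting nexin, was at 51.7 and 51.4 CPM in sgZNF146 and 36.5 CPM in both sgZNF507 libraries (−0.50, SE 0.08, adjusted p = 0.0247). COMMD9 and VPS11 kept their calls with each library left out, WDR81 lost its call without sgZNF146 replicate 2 (adjusted p = 0.0658), and SNX8 kept its call in 2 of the 6 fits, those without an EV library (largest adjusted p 0.648). In the list of 32 tethering and phosphoinositide genes 1 rose and 1 fell (median 0.024), and in that of 27 retromer, sorting nexin and COMMD genes 1 rose and 1 fell (median 0.005). Of the most abundant members, VAC14, the scaffold of the PIKfyve complex, was at 99.2 and 99.6 CPM in sgZNF146 and 132 and 119 CPM in sgZNF507 without passing (0.33, SE 0.07, adjusted p = 0.135). ZFYVE26 gave 0.21, SNX27 0.03 and SNX5 −0.12, while RAB7A and COMMD4 were at 0.00 with a sign that depended on the normalisation, and each of these had an adjusted p of 1.0.

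RAB17, a small GTPase known from endosomes of epithelial cells, had the largest fold change and a low level. Its counts were 5 and 5 in sgZNF146, 76 and 74 in sgZNF507 and 4 and 2 in EV, a log2 fold change of 3.85 (SE 0.37, adjusted p = 0.000728). Its highest level was 3.30 CPM, and the sgZNF146 value rests on 5 counts per library. The gene lies at chr2:238482965-238510257 on GRCh37. RAB17 was in none of the lists.

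In the list of 32 nutrient sensing genes and MiT/TFE factors, only SMCR8, which acts with C9orf72 at the lysosome, passed the test, at 94.0 and 91.9 CPM in sgZNF146 and 130 and 125 CPM in sgZNF507 (0.46, SE 0.06, adjusted p = 0.00818). The lncRNA RP1-178F10.3, which overlaps SMCR8 on the same strand, gave 0.52 (SE 0.08, adjusted p = 0.0204), and reads of the 2 may be shared. Both lost their calls without sgZNF146 replicate 1, sgZNF146 replicate 2 or sgZNF507 replicate 1 and under glmTreat, with adjusted p of up to 0.539 and 0.537. The most abundant members, MTOR, TSC2 and RPTOR, gave 0.10, 0.03 and 0.08. The MiT/TFE factors, the transcription factors known to drive lysosomal genes, were named after their values were seen: TFEB was at 7.53 and 9.50 CPM in sgZNF146 and 11.9 and 8.77 CPM in sgZNF507 (0.27, SE 0.17), TFE3 gave 0.07 and MITF −0.02. Each of these 6 genes had an adjusted p of 1.0, and TSC2, TFE3 and MITF changed sign with single libraries left out. None of 33 core autophagy genes passed in edgeR's quasi-likelihood test. Both sgZNF507 libraries lay above both sgZNF146 libraries for 5 (15.2%) and below for 2 (6.06%), against 15.5% and 16.5% of all genes.

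The 7 lysosomal and endosomal lists hold 253 of the 22010 genes tested, and 0.173% of all genes tested passed. Of the genes past the threshold, 15 of the 23 higher and 3 of the 15 lower were members of these lists. These lists were chosen with earlier results of these data known, so their share is a description. Each list had 1 to 4 genes that rose among 23 to 64 tested, and the list medians ran from −0.017 to 0.069.

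**Figure D3:**
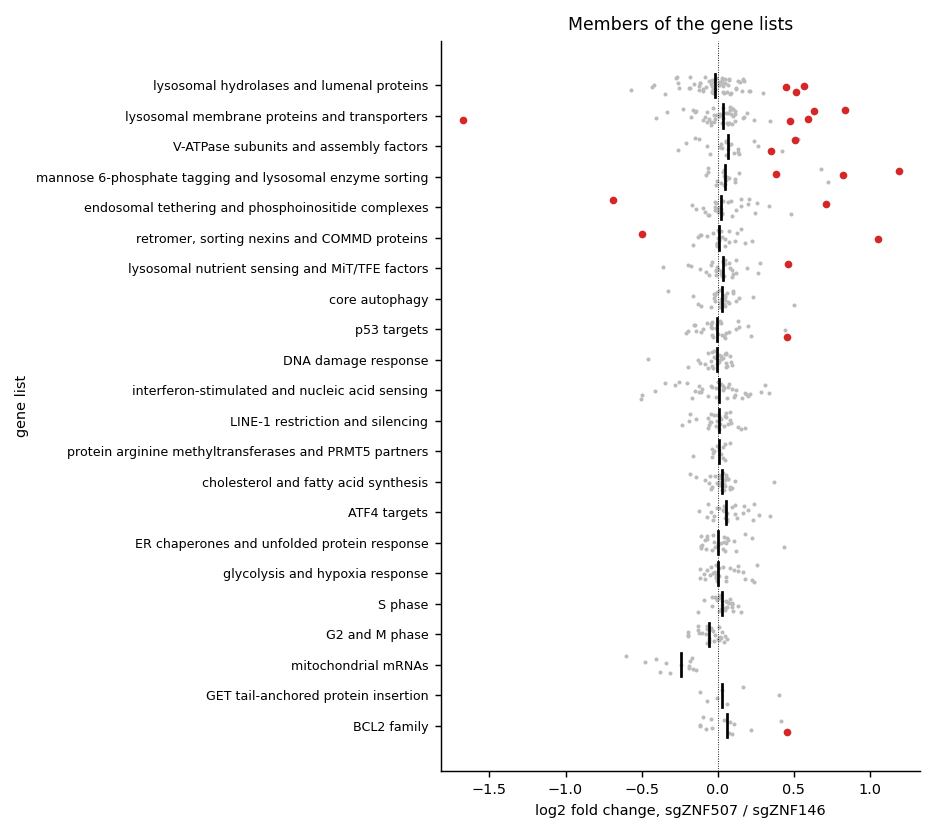
Log2 fold change of sgZNF507 over sgZNF146 (horizontal axis) for every tested member of each gene list (rows), with members past the threshold in red and the list median as a black bar. The red points are few and lie away from their list medians, and the mitochondrial mRNAs, none of them red, all lie below 0. The 2 lists of cell type markers are not plotted.

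Other protein-coding genes past the threshold were in none of the 7 lysosomal and endosomal lists. GATB, a subunit of the amidotransferase that forms mitochondrial glutaminyl-tRNA, was at 58.2 and 56.0 CPM in sgZNF146 and 92.0 and 98.5 CPM in sgZNF507 (0.74, SE 0.07, adjusted p = 0.000728). RBM19, which acts in ribosome assembly, was at 128 and 136 CPM in sgZNF146 and 202 and 209 CPM in sgZNF507 (0.64, SE 0.06, adjusted p = 0.000728). SLC35B2, the Golgi transporter of the sulfate donor PAPS, gave 0.53 (SE 0.08, adjusted p = 0.0125), and GPATCH3 gave 0.59 (SE 0.09, adjusted p = 0.0247). TRAPPC2L, a subunit of the TRAPP tethering complexes and the 1 gene here that the naming rule did not reach, was named after its value was seen (0.48, SE 0.07, adjusted p = 0.0177). GPRASP3 (also called BHLHB9), of a family linked to receptor sorting, was lower, at 31.0 and 28.4 CPM in sgZNF146 and 17.7 and 18.5 CPM in sgZNF507 (−0.71, SE 0.09, adjusted p = 0.00697). With 1 library left out, GATB and RBM19 kept their calls in 6 of 6 fits, GPRASP3 in 5, SLC35B2 in 4, TRAPPC2L in 3 and GPATCH3 in 2, all losses but 1 of GPATCH3 (without EV replicate 2) coming from fits without an sgZNF146 or sgZNF507 library.

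BAX, the pore-forming protein of apoptosis, was the only member past the threshold among 31 p53 targets and 14 BCL2 family genes tested. It was at 90.0 and 83.6 CPM in sgZNF146, 124 and 114 CPM in sgZNF507 and 88.3 and 90.4 CPM in EV (0.45, SE 0.07, adjusted p = 0.0204). The BAX call was lost without sgZNF146 replicate 1, sgZNF146 replicate 2 or sgZNF507 replicate 1 and under glmTreat (largest adjusted p 1.0). MDM2, AEN and CDKN1A, the last named after its value was seen, gave −0.14, 0.05 and −0.04, each with an adjusted p of 1.0, and CDKN1A changed sign with single libraries left out. The p53 list had a median of −0.005, and none of 31 DNA damage response genes passed (median −0.004). Both groups had been cut by Cas9, so a response to cutting that they share cannot appear here.

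The study asked about LINE-1, and the lists of host genes around it held no call. Over all genes tested 0.173% passed, so lists of this size would seldom hold one. LINE-1 transcripts themselves were not counted here. None of 30 LINE-1 restriction and silencing genes passed (median 0.005), and TRIM28, ADAR and DNMT1 gave 0.06, 0.01 and 0.02 with adjusted p of 1.0, the last 2 with signs that turned when single libraries were left out. None of 38 interferon-stimulated and nucleic acid sensing genes passed: both sgZNF507 libraries lay above both sgZNF146 libraries for 3 (7.89%) and below for 12 (31.6%), against 15.5% and 16.5% of all genes, and the median was 0.009. Among 13 arginine methyltransferases and PRMT5 partners none passed. PRMT5 was at 183 and 188 CPM in sgZNF146 and 184 and 190 CPM in sgZNF507 (0.01, SE 0.06), and its partner WDR77 was at 103 and 109 CPM and 110 and 115 CPM (0.08, SE 0.07), both with an adjusted p of 1.0.

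Promoters were searched for the E-box, a motif known for MiT/TFE factors and also bound by other bHLH-ZIP factors such as USF1 and MYC. RefSeq promoters on GRCh38.p14, from 250 bases before to 50 after the gene start, were found for 20 of the 23 higher and 5 of the 15 lower genes. The motifs searched on both strands were TCACGTG and the shorter CACGTG that it contains. Other motifs, including variants of these, were not searched. The longer motif was present in 14 of 20 promoters of higher genes (70%) and in 3 of 5 of lower genes (60.0%), those of GPRASP3, ZNF507 and SNX8. It was present in 734 of 13157 promoters of genes tested (5.58%) and in 1303 of all 35116 promoters (3.71%), and CACGTG in 9.67% and 7.26%. In the promoters of the 7 lysosomal and endosomal lists the share with TCACGTG ran from 21.4% to 26.9%. The promoters of 6 higher genes (RAB17, GATB, GPATCH3, GLA, SLC35B2 and SMCR8) and of GLMP and WDR81 held no CACGTG.

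The called promoters held 34 copies of CACGTG at positions from −250 to 14 relative to the gene start, with a median of −43.5, and 23 of the 34 lay within 70 bases of the start. Copy number differed, with 6 in LAMP1, 4 in BAX and 3 in IGF2R. The promoters of NAGPA and COMMD9 (the higher genes of the largest fold change that have a motif), LAMP1 and BAX (the most copies) and ZNF507 (the targeted gene) are shown on the strand of the gene, with CACGTG in capitals.
NAGPA: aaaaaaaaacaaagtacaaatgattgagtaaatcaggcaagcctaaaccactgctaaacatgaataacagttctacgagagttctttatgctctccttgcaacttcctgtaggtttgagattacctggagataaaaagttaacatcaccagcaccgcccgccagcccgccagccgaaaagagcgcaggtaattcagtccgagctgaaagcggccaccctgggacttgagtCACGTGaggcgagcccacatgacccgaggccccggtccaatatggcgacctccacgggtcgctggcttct
COMMD9: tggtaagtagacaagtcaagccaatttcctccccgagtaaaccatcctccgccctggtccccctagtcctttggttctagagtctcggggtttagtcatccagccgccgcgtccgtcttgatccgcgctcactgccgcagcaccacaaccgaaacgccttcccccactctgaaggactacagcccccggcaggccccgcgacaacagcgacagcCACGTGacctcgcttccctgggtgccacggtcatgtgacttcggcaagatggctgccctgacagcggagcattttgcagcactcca
LAMP1: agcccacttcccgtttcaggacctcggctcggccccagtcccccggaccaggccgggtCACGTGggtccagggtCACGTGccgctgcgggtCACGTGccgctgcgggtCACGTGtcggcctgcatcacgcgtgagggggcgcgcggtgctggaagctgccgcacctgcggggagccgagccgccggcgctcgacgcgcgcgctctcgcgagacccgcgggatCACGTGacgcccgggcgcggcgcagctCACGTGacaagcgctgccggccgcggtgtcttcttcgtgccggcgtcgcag
BAX: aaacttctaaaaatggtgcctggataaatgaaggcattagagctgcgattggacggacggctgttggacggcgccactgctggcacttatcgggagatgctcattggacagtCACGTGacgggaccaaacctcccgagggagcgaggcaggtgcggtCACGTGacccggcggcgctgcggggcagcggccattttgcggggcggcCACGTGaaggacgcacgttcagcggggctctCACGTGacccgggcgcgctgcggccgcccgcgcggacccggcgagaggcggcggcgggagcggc
ZNF507: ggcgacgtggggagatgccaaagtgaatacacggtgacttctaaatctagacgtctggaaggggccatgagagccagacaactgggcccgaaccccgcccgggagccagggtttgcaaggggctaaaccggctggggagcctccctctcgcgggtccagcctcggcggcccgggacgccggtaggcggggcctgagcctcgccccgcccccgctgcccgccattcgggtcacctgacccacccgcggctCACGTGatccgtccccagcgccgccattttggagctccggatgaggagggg
They lie at chr16:5033886-5034185 (minus strand), chr11:36289375-36289674 (minus), chr13:113296989-113297288 (plus), chr19:48954625-48954924 (plus) and chr19:32345360-32345659 (plus). The CACGTG of ZNF507 begins at −1, and those of NAGPA and COMMD9 begin at −20 and −36.

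Having the motif did not go with a general shift up or down. The 734 tested genes with TCACGTG in the promoter had a median log2 fold change of 0.00. For 19.1% of them both sgZNF507 libraries lay above both sgZNF146 libraries, and for 19.5% below, against 15.5% and 16.5% of all genes. Groups without overlap were thus somewhat more frequent among these genes in both directions, a difference that was not tested. Of these 734 genes, 14 rose and 3 fell, against 6 and 2 of 11886 genes without an E-box. The 538 genes with CACGTG outside TCACGTG had no call and a median of 0.005.

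Small nuclear and nucleolar RNAs made up most of the lower non-coding genes. SNORD3B-2, a copy of the U3 snoRNA, was at 551 and 386 CPM in sgZNF146, 162 and 211 CPM in sgZNF507 and 479 and 344 CPM in EV (−1.33, SE 0.17, adjusted p = 0.00685). RNVU1-9, a variant of the U1 splicing RNA, was at 18 and 14.5 CPM in sgZNF146 and 5.51 and 5.25 CPM in sgZNF507 (−1.60, SE 0.14, adjusted p = 0.000431). RNU5E-1, a U5 copy, gave −1.42 (SE 0.22, adjusted p = 0.0204) from 3.74 and 4.01 CPM in sgZNF146 and 1.56 and 1.35 CPM in sgZNF507. SNORD13 (−1.09), SCARNA22 (−1.08) and SNORA71A (−0.67) were lower too, with adjusted p of 0.0405, 0.00957 and 0.014, and so was BCYRN1, the BC200 RNA (−0.43, adjusted p = 0.0398). With 1 library left out, SNORD3B-2 and RNVU1-9 kept their calls in 6 of 6 fits, SCARNA22 in 5, SNORA71A in 3 and RNU5E-1 in 2. SNORD13 and BCYRN1 kept theirs in 1 of 6 and lost them with the 4 libraries alone and under glmTreat, and the log2 fold change of SNORD13 ran from −1.41 to −0.68 over all alternatives. Copies of U1, U3, U5, SNORA71 and BC200 share sequence, so reads may be split among them and these values are uncertain. The other lower non-coding genes were ENSG00000265764, annotated as a miRNA (−1.47, adjusted p = 0.00167), and the lncRNAs ENSG00000260035, which overlaps SHF on the same strand (−1.46, adjusted p = 0.0312), and ENSG00000270022 (−0.99, adjusted p = 0.0192), which kept their calls in 6, 3 and 4 of the 6 fits.

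Over all 148 snoRNA and scaRNA genes tested, none rose, 4 fell and the median was −0.125. Both sgZNF507 libraries lay below both sgZNF146 libraries for 41 (27.7%) and above for 17 (11.5%), against 16.5% and 15.5% of all genes. Their summed level was 1296 and 1143 CPM in sgZNF146, 744 and 791 CPM in sgZNF507 and 1238 and 947 CPM in EV. Much of that sum was SNORD3B-2: without it, a choice made after the data were seen, the sums were 745 and 757 CPM in sgZNF146, 582 and 580 CPM in sgZNF507 and 759 and 603 CPM in EV, and the median was −0.124. Over 58 snRNA genes, 2 fell, the median was −0.286, and the summed level was 128 and 117 CPM in sgZNF146 and 96.5 and 82.8 CPM in sgZNF507, with EV at 148 and 117 CPM. In both classes the 2 sgZNF507 libraries had the lowest sums of all 6. The authors cleaned the RNA with RNeasy Mini kits before making libraries, and whether recovery of short RNAs differed between libraries was not tested.

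The 13 mRNAs of the mitochondrial genome encode respiratory chain and ATP synthase subunits. For 13 of 13, both sgZNF507 libraries lay below both sgZNF146 libraries, against 16.5% of all genes, yet none passed the threshold. The median log2 fold change of these mRNAs was −0.239, and against EV the medians were −0.308 for sgZNF507 and −0.025 for sgZNF146. Their summed level was 27012 and 25225 CPM in sgZNF146, 21892 and 22813 CPM in sgZNF507 and 26103 and 28360 CPM in EV, with no overlap between sgZNF507 and the other 4 libraries. The most abundant, MT-ND4, was at 3681 and 3435 CPM in sgZNF146 and 3066 and 3214 CPM in sgZNF507 (−0.18, adjusted p = 1.0), and MT-ND5 and MT-CO1 gave −0.17 and −0.14, also with an adjusted p of 1.0. The difference was largest for MT-ND6, at 734 and 645 CPM in sgZNF146 and 373 and 536 CPM in sgZNF507 (−0.60, SE 0.14, adjusted p = 0.27), which was named after its value was seen. These transcripts come from a shared genome and are not independent of each other, and fewer mitochondrial transcripts per cell cannot be told apart from more RNA of other kinds.

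**Figure D4:**
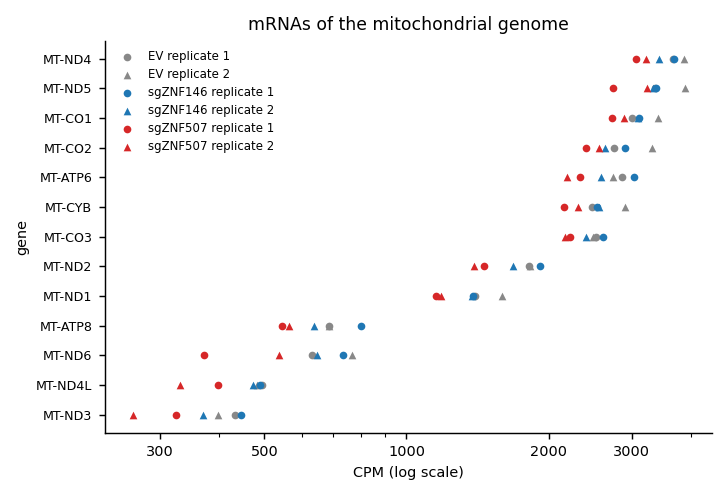
Level of the 13 mitochondrial mRNAs in CPM (horizontal axis, log scale) in all 6 libraries, with EV in grey, sgZNF146 in blue and sgZNF507 in red, circles for replicate 1 and triangles for replicate 2. For every gene both red points lie to the left of both blue points.

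The cell cycle lists held no call, where 0.173% of all genes tested passed. None of 30 G2 and M phase genes passed, with a median of −0.056 and both sgZNF507 libraries below both sgZNF146 libraries for 8 (26.7%) and above for none, against 16.5% and 15.5% of all genes. MKI67, the proliferation marker, was at 696 and 704 CPM in sgZNF146, 619 and 663 CPM in sgZNF507 and 644 and 658 CPM in EV (−0.13, SE 0.06, adjusted p = 1.0), while TOP2A and CENPF gave −0.05 and −0.02 with signs that turned when single libraries were left out. None of 29 S phase genes passed, 10 (34.5%) having both sgZNF507 libraries above and 1 (3.45%) below (median 0.029). The lists of ATF4 targets (28 genes, median 0.055), cholesterol and fatty acid synthesis (30, 0.03), ER chaperones (27, 0.001), glycolysis (29, 0.00) and tail-anchored protein insertion (7, 0.026) held no gene past the threshold.

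Because both sets of guides cut chromosome 19, genes along it were compared by position. Among 676 genes of the short arm, where neither set of guides cuts, none passed, the median was 0.018, and both sgZNF507 libraries lay above both sgZNF146 libraries for 18% and below for 12.9%, against 15.5% and 16.5% of all genes. Between ZNF507 and ZNF146, 94 genes had a median of −0.029, with both sgZNF507 libraries above for 10 and below for 21. Beyond ZNF146, towards the end of the long arm, 689 genes had a median of 0.032, with 150 above (21.8%) and 86 below (12.5%), and 1, BAX, rose. For these 689 genes the median against EV was −0.03 for sgZNF507 and −0.061 for sgZNF146. Within 500 kb of the ZNF507 start 9 other genes were tested (median −0.073) and within 500 kb of ZNF146 40 genes (median −0.009), none of which passed.

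**Figure D5:**
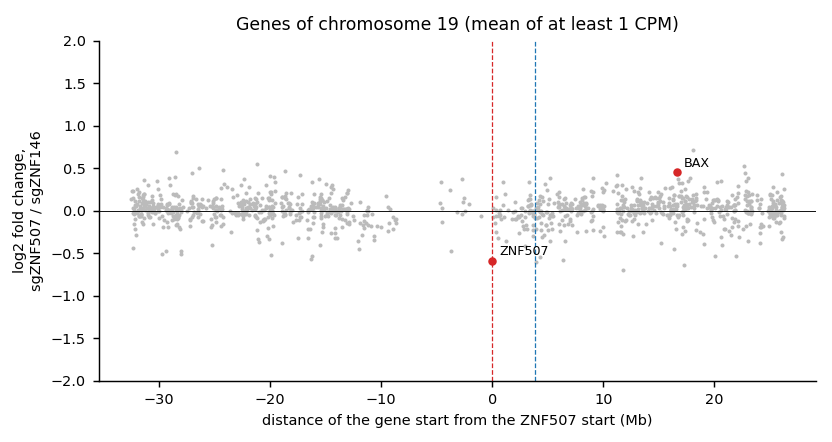
Log2 fold change of sgZNF507 over sgZNF146 (vertical axis) along chromosome 19, by distance in Mb of the gene start from the ZNF507 start (horizontal axis), for genes with a mean of at least 1 CPM over the 4 libraries. Dashed lines mark ZNF507 (red) and ZNF146 (blue), the only genes past the threshold are ZNF507 and BAX, and points on either side of the lines scatter around 0.

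Elsewhere, 283 windows of 10 Mb with at least 20 genes tested were compared. The highest medians were 0.251 at chr18:30000001-40000000 (32 of 36 genes higher), 0.178 at chr7:150000001-160000000 (54 of 73), 0.17 at chr7:140000001-150000000 (63 of 73) and 0.146 at chr13:70000001-80000000 (26 of 29), with no gene past the threshold in any of them. In these windows the sgZNF146 libraries were the ones that stood apart. Relative to the mean of all libraries, the chr18 window had medians of −0.12 and −0.148 in sgZNF146, 0.091 and 0.052 in sgZNF507 and 0.089 and 0.033 in EV. The chr7 window from 140 Mb had −0.148 and −0.098 in sgZNF146, 0.041 and 0.079 in sgZNF507 and 0.061 and 0.079 in EV. The lowest window medians were −0.163 at chr21:10000001-20000000 and −0.114 at chr10:60000001-70000000.

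Genomic sites resembling the guides were searched with 1 to 3 mismatches and an adjacent NGG. The ZNF507 guides had 39 such sites, 18 in genes tested, and the ZNF146 guides had 65, 42 in genes tested. Each set had 1 in a gene past the threshold. Under the reading used, ZNF507 guide 1 resembled a site in an intron of RAB17 at chr2:238504090-238504109 (plus strand, PAM TGG), 6.2 kb from the gene start, with the substitutions A6C, T9G and T10A, counted from 1 at the 5′ end of the protospacer, guide base first. ZNF146 guide 2 resembled a site in an intron of SNX8 at chr7:2392492-2392511 (PAM CGG), 1.5 kb from the gene start, with A5C, T17G and G18A. SNX8 was at 56.2 and 50.9 CPM in EV, at 51.7 and 51.4 CPM in sgZNF146 and at 36.5 CPM in both sgZNF507 libraries. ZNF507 guide 1 is 1 of the 2 sequences with an NGG on both strands, and its other reading was not searched. Cutting at either site was not tested.

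The calls depended on single libraries of both groups. Those of GLA, CTSA, BAX, CLCN7 and SMCR8, among others, were lost without sgZNF507 replicate 1 as well as without either sgZNF146 library. Without sgZNF146 replicate 1 there were 13 calls, all among the 38, and without sgZNF146 replicate 2 there were 23, of which 17 were among the 38. Leaving out any of the other 4 libraries left 26 to 37 calls. With each library left out in turn, 12 genes stayed past the threshold: GLMP, NAGPA, COMMD9, RAB17, GNPTG, GATB, VPS11, RBM19, LAMP1, RNVU1-9, SNORD3B-2 and ENSG00000265764. Each of the 38 genes kept its sign under every alternative that gave it a value. Of the 38 genes, 12 overlap another annotated gene on the same strand and 19 on the opposite strand, and whether counting used strand is not stated.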

How the data were processed

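The authors trimmed their reads (Fastx Toolkit), discarded ribosomal ones (Bowtie), aligned the remainder to hg19 (TopHat2, strand-specific setting) and counted per Ensembl gene (featureCounts). The deposited values are raw counts for 57773 genes in 6 libraries, and symbols were matched for 96.1% of the identifiers on GRCh37.

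Genes were filtered by filterByExpr, normalised by TMM and tested with edgeR 4.0.16 (glmQLFit and glmQLFTest, R 4.3.3) on all 6 libraries, so that EV shared in the estimate of the spread (common dispersion 0.0052). DESeq2 1.42.0, which the study used, was an alternative. Adjusted p-values are Benjamini-Hochberg values over 22010 genes with a threshold of 0.05. Standard errors follow from the F statistic. With 2 libraries against 2, an exact permutation test cannot go below p = 0.333. On simulated counts for 21978 genes, edgeR recovered 86 of 100 genes changed 2-fold and 54 of 100 changed 1.5-fold between sgZNF507 and sgZNF146, with 5 calls on unchanged genes. The changed genes were drawn only from genes above a minimum of summed counts, and no replicate effect was simulated. Recovery among genes with low counts was therefore not assessed.

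Genes named were ZNF507, ZNF146, PRMT5, WDR77, the 15 largest changes past the threshold in each direction, every list member past it and the 3 most abundant members of each list described gene by gene. 1 gene past the threshold is counted but not reported here. The members and the 24 lists (685 symbols, 3 unmatched) were chosen with earlier results of these data known. Alternatives were other normalisations, filters, fits, tests, a replicate block and leaving out each library. Figures were drawn with matplotlib 3.10.9.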

Additional observations from a re-analysis of the deposited data

How the results depend on the processing

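The count of 38 genes past the threshold became 112 with no filter other than at least 1 count, which tested 36846 genes, and 14 with glmTreat against a fold change of 1.2, all 14 of them among the 38. Other normalisations, a minimum of 10 counts, the 4 libraries alone and DESeq2 on 6 or 4 libraries gave 30 to 56. With 1 library left out the count ran from 13 to 37. ZNF507 missed the threshold under glmTreat (−0.591, adjusted p = 0.061) and when either sgZNF146 library was left out (range −0.606 to −0.57 over the libraries left out). The cause was not tested.

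With the replicate number as a replicate block, edgeR called 196 genes, including all 38, and DESeq2 called 73, including 36 of them. The labels do not say that a number marks a shared day or batch, and with 2 numbers per group the check of pairing is weak, so the block was not used in the fit reported. Across genes, the deviations of same-numbered libraries correlated at 0.145 between sgZNF146 and sgZNF507, 0.138 between EV and sgZNF146 and 0.176 between EV and sgZNF507. Multidimensional scaling, which places libraries by their distances, had replicate 1 above replicate 2 in every group on its first axis (24.7%). The positions were 0.359 and −0.421 in EV, 0.0804 and −0.454 in sgZNF146 and 0.758 and −0.322 in sgZNF507. Whether this reflects a shared batch was not tested.

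Signs turned only for genes that did not pass. RAB7A, at −0.00, gave 0.003 with DESeq2 size factors, 0.002 with upper quartile scaling, 0.001 without mitochondrial genes, 0.009 without the filter, 0.003 with at least 10 counts, 0.002 on the 4 libraries in edgeR, 0.004 and 0.005 in DESeq2 on 6 and 4 libraries and 0.004 in DESeq2 with the replicate block. COMMD4, at −0.003, gave 0.001 with DESeq2 size factors, 0.006 without the filter, and 0.001, 0.002 and 0.002 in DESeq2 on 6 libraries, on 4 and with the replicate block. With 1 library left out the ranges were −0.18 to 0.005 for ZNF146, −0.005 to 0.034 for PRMT5, −0.07 to 0.043 for PSAP, −0.158 to 0.018 for CD164, −0.028 to 0.161 for GGA2, −0.045 to 0.054 for RAB7A, −0.044 to 0.118 for TSC2, −0.013 to 0.165 for TFE3, −0.185 to 0.134 for MITF, −0.198 to 0.121 for CDKN1A, −0.041 to 0.028 for VPS18, −0.076 to 0.053 for VPS39, −0.187 to 0.087 for TOP2A, −0.103 to 0.067 for CENPF, −0.013 to 0.034 for ADAR, −0.012 to 0.055 for DNMT1 and −0.06 to 0.063 for COMMD4.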

Other observations

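Mitochondrial tRNA genes lay on the same side as the mitochondrial mRNAs. Of 18 tested, none passed the threshold in edgeR's quasi-likelihood test, the median log2 fold change was −0.403, and both sgZNF507 libraries lay below both sgZNF146 libraries for 7 (38.9%) and above for 1 (5.56%), against 16.5% and 15.5% of all genes. Their summed level was 58.4 and 55.2 CPM in sgZNF146, 41.2 and 43.7 CPM in sgZNF507 and 63.7 and 59.2 CPM in EV. Recovery of such short RNAs in each library was not tested.

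Long non-coding RNA genes, 3995 of them tested, held 1 gene that rose and 2 that fell, with a median of −0.015.

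Promoters of the 158 genes that passed only with the replicate block were searched for the same motif after the data had been seen. TCACGTG was in 13 of 62 promoters of higher genes (21%) and in 9 of 33 of lower genes (27.3%), beside 5.58% of the promoters of all genes tested.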
